A study of Mus musculus with 24 samples.

Results

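This account follows 9 genes for the cytoskeleton of large axons, taken by name from 38924 gene rows: the intermediate filament genes Nefl, Nefm, Nefh, Ina and Prph, the stathmin genes Stmn2, Stmn3 and Stmn4, and the neuronal tubulin gene Tubb3. They were chosen as a set of structural genes and not by a threshold on a measured value, but with earlier results of these data known. All 9 passed the filter on low counts in every comparison. They were measured in ribosome-associated RNA from the spinal cords of 24 mice aged 8 weeks, in 4 groups of 6. Every mouse carried 1 copy of the HA-tagged Rpl22 allele (Rpl+/-), on the background labelled B6.CgxB6.129. The groups combined Gars C201R heterozygotes (C201R+/-) or wild type mice (WT, labelled C201R+/+) with ChAT-Cre (Chat+/-) or no Cre (Chat+/+). Gars encodes glycyl-tRNA synthetase, and dominant mutations in it cause a neuropathy of peripheral axons. Cre from the choline acetyltransferase locus switches on the tagged ribosomal protein in cholinergic cells, which include motor neurons and other cholinergic neurons of the cord. An antibody to the tag then pulls down ribosomes with their mRNA, and pulldowns without Cre measure the background. Each library had its own mouse number, used here as its name.

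Neurofilaments are heteropolymers that fill large myelinated axons and set their calibre. The light subunit (Nefl) forms the core with the medium and heavy subunits (Nefm, Nefh), whose long tails project sideways, and with alpha-internexin (Ina) in central neurons or peripherin (Prph) in neurons that send axons to the periphery. Stathmins bind free tubulin dimers and favour microtubule disassembly: Stmn2 is known for axon maintenance and regrowth, and Stmn3 and Stmn4 are its neuronal relatives. Tubb3 encodes the beta tubulin that marks neurons.

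The RefSeq promoter table (GRCm38.p6) matched 4 of the 9 genes, and the 250 bases before the start site are shown for all 4. Of these, Prph and Tubb3 rose among the most with Cre, Stmn3 rose less in WT, and Ina was hardly changed in WT. Capitals mark TATAA, the core of a TATA box, on either strand. The windows are Ina at chr19:47014431-47014680 (plus strand), Prph at chr15:99054924-99055173 (plus strand), Stmn3 at chr2:181314501-181314750 (minus strand) and Tubb3 at chr8:123411303-123411552 (plus strand).
Ina: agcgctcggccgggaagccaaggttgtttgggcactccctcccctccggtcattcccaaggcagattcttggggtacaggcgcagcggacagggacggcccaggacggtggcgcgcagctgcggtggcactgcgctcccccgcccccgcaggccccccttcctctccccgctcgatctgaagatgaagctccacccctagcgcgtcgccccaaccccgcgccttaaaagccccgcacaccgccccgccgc
Prph: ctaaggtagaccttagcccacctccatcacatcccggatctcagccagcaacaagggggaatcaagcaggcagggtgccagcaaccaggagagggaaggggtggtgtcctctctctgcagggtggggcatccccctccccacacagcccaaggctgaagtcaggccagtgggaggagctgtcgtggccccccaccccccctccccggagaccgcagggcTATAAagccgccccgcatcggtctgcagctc
Stmn3: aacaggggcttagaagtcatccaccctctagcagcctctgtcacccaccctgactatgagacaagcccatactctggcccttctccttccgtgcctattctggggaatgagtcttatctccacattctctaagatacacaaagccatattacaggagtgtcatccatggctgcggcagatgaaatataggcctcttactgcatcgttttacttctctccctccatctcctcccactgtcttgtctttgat
Tubb3: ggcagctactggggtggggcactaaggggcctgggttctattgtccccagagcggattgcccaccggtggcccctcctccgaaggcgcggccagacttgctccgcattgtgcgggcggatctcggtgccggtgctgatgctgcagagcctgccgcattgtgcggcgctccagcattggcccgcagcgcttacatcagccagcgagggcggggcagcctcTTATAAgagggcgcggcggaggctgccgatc
Motifs were searched in the whole RefSeq windows of 300 bases, on both strands. TATAA was present in Prph, with its first base at -31 from the start site, and in Tubb3, where overlapping matches began at -31 and -30. It was not found in the windows of Ina and Stmn3, and 24.9% of all 32851 windows held it. GGGCGG, the core of a GC box, had 2 matches each in Ina and Tubb3, 1 in Prph and 0 in Stmn3, against 35.7% of all windows with a match. CCAAT matched only in Tubb3 of these 4, at -77, against 37.4% of all windows. GC content was 71.7% in Ina, 67.3% in Tubb3, 64.7% in Prph and 49.7% in Stmn3, beside a median of 52.7% over all windows. These matches describe the letters only.

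Library totals ran from 8.9 M to 28.29 M expected counts. Mitochondrial transcripts took 35.19% to 55.54% of counts without Cre and 1.24% to 17.11% with Cre. Chat itself was at 50.0 to 116.4 CPM (the count relative to the library size, TMM-scaled over all 24 libraries) in the 12 libraries with Cre and at 0.871 to 8.91 CPM in the 12 without, so the Cre labels fitted every library. The library numbers formed 2 runs, called series 1 (7 libraries) and series 2 (17 libraries), whose meaning the labels do not give. With Cre, 7.45% to 43.26% of counts fell on Gm26924, a model with ribosomal RNA sequence. Its share was above 30% in 4 libraries, the 3 series 1 libraries of C201R (mice 14003-1, 14003-4 and 14701-5) and WT mouse 14701-9, also of series 1. Results with Cre are therefore given with these libraries named.

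Neurofilament mRNA was the most abundant of the set in every group, on the length-corrected TPM scale of the deposited files (which allows levels of different genes to be compared). In WT with Cre the median level was 14760 TPM for Nefm, 10620 TPM for Nefl and 2251 TPM for Nefh. Stmn2 followed at 1786 TPM, Stmn3 at 903.5 TPM, Tubb3 at 536.9 TPM and Prph at 461.7 TPM. Ina at 103.8 TPM and Stmn4 at 77.48 TPM were the lowest. Each gene stood above the next in all 6 libraries, apart from Stmn2 over Stmn3 (5 of 6) and Ina over Stmn4 (4 of 6). In C201R with Cre the medians were 9483 TPM for Nefm, 3655 TPM for Nefl and 1345 TPM for Nefh, each above the next of the 3 in all 6 libraries. Below them the order of Stmn3 (1211 TPM) and Stmn2 (829.2 TPM) was the other way round from WT, but Stmn3 was the higher in only 4 of 6 libraries. Tubb3 (440.2 TPM) and Prph (310.1 TPM) kept their places, and Stmn4 (94.44 TPM) stood over Ina (71.98 TPM) in 4 of 6. These TPM medians serve to order genes inside a group and not to compare the genotypes. Ina and Prph had lower TPM medians in C201R than in WT with Cre, but higher CPM medians (150.7 against 118.0 and 312.8 against 274.3).

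Without Cre the levels lay closer together. In WT the medians ran from 673.1 TPM for Nefm, 558.4 TPM for Nefl and 161.2 TPM for Nefh down to 15.29 TPM for Tubb3 and 10.29 TPM for Prph. Nefm was above Nefl in 4 of 6 libraries there and in 3 of 6 in C201R without Cre (462.1 and 398.6 TPM), so the order of this pair was not separated from the spread between mice. Stmn4, the lowest gene of the set in WT with Cre, was the fourth in both groups without Cre, at 74.2 TPM in WT and 77.97 TPM in C201R. Stmn2 and Stmn3 in WT (55.92 and 55.66 TPM) were also not separated, with Stmn2 higher in 4 of 6.

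Pulldown with Cre raised 7 of the 9 genes in both genotypes. In WT these 7 were higher and Stmn4 was lower by edgeR's quasi-likelihood test with Benjamini-Hochberg adjustment over all 14264 genes (adjusted p under 0.05), where 27.7% of all genes were higher and 32.8% lower. In C201R 8 of the 9 were higher, beside 30.5% of all 14335 genes higher and 26.4% lower. The members' median log2 change was 2.57 in WT and 3.41 in C201R, and that of all genes was -0.097 and 0.065. For the 7 genes, every library with Cre lay above every library without Cre in each genotype, and Ina and Stmn4 overlapped in both. The share of all genes that separate in this way was not counted. In bulk pulldowns, more cells of a type and more RNA per cell cannot be told apart. The 2 Cre comparisons use different mice, but each shares its libraries with a comparison of genotypes below.

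**Figure D1:**
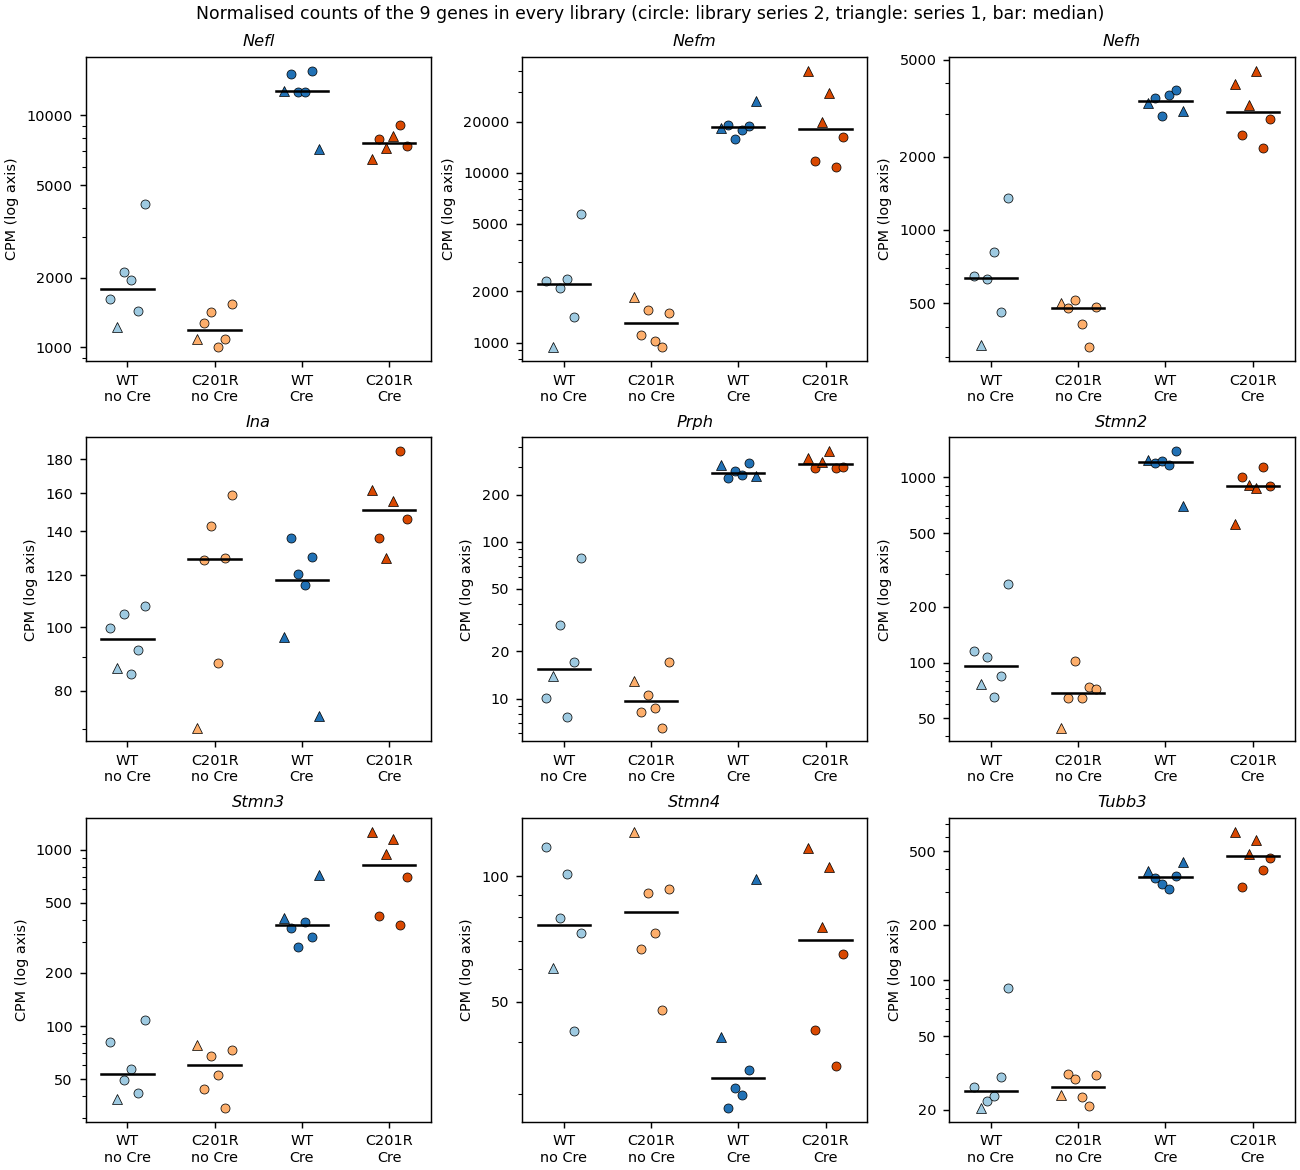
Normalised level (CPM, log axis) of each of the 9 genes in the 24 libraries, by group. Points are single mice, triangles mark library series 1, circles series 2, and the bar is the group median. In this set 7 genes separate fully by Cre, and Ina and Stmn4 do not. The share of all genes that do so was not counted.

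Peripherin had the largest change with Cre. In WT without Cre, Prph was at 7.63, 10.1, 13.94, 17.03, 29.61 and 78.9 CPM, and in WT with Cre at 254.2, 261.3, 266.5, 282.2, 309.7 and 319.5 CPM. Its spread without Cre came from mouse 14702-6, the highest, which is taken up in the closing section. The log2 change was 3.37 ± 0.55 (SE, n = 6 and 6; edgeR adjusted p = 0.00037). In C201R, Prph was at 6.53 to 17.1 CPM without Cre and at 293.2 to 377.4 CPM with Cre, a log2 change of 4.86 ± 0.23 (edgeR adjusted p = 4.28e-10). Only 0.1% of all genes in C201R had a higher log2 change.

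Tubb3 rose from 20.4 to 90.8 CPM without Cre to 313.7 to 437.2 CPM with Cre in WT, by 3.25 ± 0.35 on the log2 scale (edgeR adjusted p = 3.46e-06). In C201R it rose by 4.07 ± 0.21 (edgeR adjusted p = 4.28e-10), from 20.8 to 31.1 CPM to 321.4 to 637.4 CPM. Among the stathmins, Stmn2 rose by 3.21 ± 0.29 in WT and 3.88 ± 0.20 in C201R, and Stmn3 by 2.48 ± 0.28 and 3.41 ± 0.25. By fitted value, the 3 subunits of the triplet rose in the same order in both genotypes, but the order was not tested. In C201R the Nefh/Nefl TPM ratio inside libraries changed with Cre by 0.14 ± 0.23 on the log2 scale (exact permutation adjusted p = 0.642). That is opposite to the fitted order of Nefl and Nefh, and did not pass. Nefm changed by 2.91 ± 0.35 in WT and 3.60 ± 0.26 in C201R, Nefl by 2.57 ± 0.25 and 2.73 ± 0.18, and Nefh by 2.22 ± 0.24 and 2.65 ± 0.19 on the log2 scale. All of these passed the edgeR test, with adjusted p of at most 4.81e-06 in WT and 1.22e-08 in C201R. They passed it as well under all 12 other settings and with any 1 library left out, as did Prph and Tubb3, except that DESeq2 gave no adjusted p for Prph in WT.

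Ina and Stmn4 stood apart from the other 7. Ina was at 84.97, 86.62, 92.4, 99.8, 104.8 and 107.7 CPM in WT without Cre and at 73.2, 96.5, 115.8, 120.3, 128.0 and 136.6 CPM with Cre. These ranges overlapped, and the log2 change of 0.09 ± 0.14 was not called (edgeR adjusted p = 0.57). In C201R, Ina was at 70.4 to 158.7 CPM without Cre and 127.5 to 185.2 CPM with Cre. The change of 0.52 ± 0.20 was called (edgeR adjusted p = 0.0379), but it was lost under 8 of 12 alternatives and without any 1 of 7 mice (14003-1, 14003-2, 14003-3, 14003-4, 14004-5, 14004-7 and 14702-8; adjusted p 0.0524 to 0.378).

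Stmn4 was lower with Cre. In WT its levels were 42.6, 60.2, 73.0, 79.5, 101.1 and 117.3 CPM without Cre, and 27.8, 29.9, 31.1, 34.4, 41.2 and 98.2 CPM with Cre. The one high value with Cre was mouse 14701-9, and the other 5 lay below every library without Cre. The log2 change was -1.26 ± 0.30 (edgeR adjusted p = 0.00218). In C201R it was at 47.8 to 127.8 CPM without Cre and at 35.0 to 116.8 CPM with Cre, a change of -0.53 ± 0.23 that was not called (edgeR adjusted p = 0.0525). It was called lower in C201R under 8 of 12 alternatives, among them RLE scaling (-0.72, adjusted p = 0.011), and without any 1 of 7 mice. With library totals alone, the WT change of Stmn4 was -0.34 (adjusted p = 0.30) and that of Ina was 1.04 (adjusted p = 0.0021). That scaling moved the median log2 change of all genes in WT from -0.097 to 0.839.

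**Figure D2:**
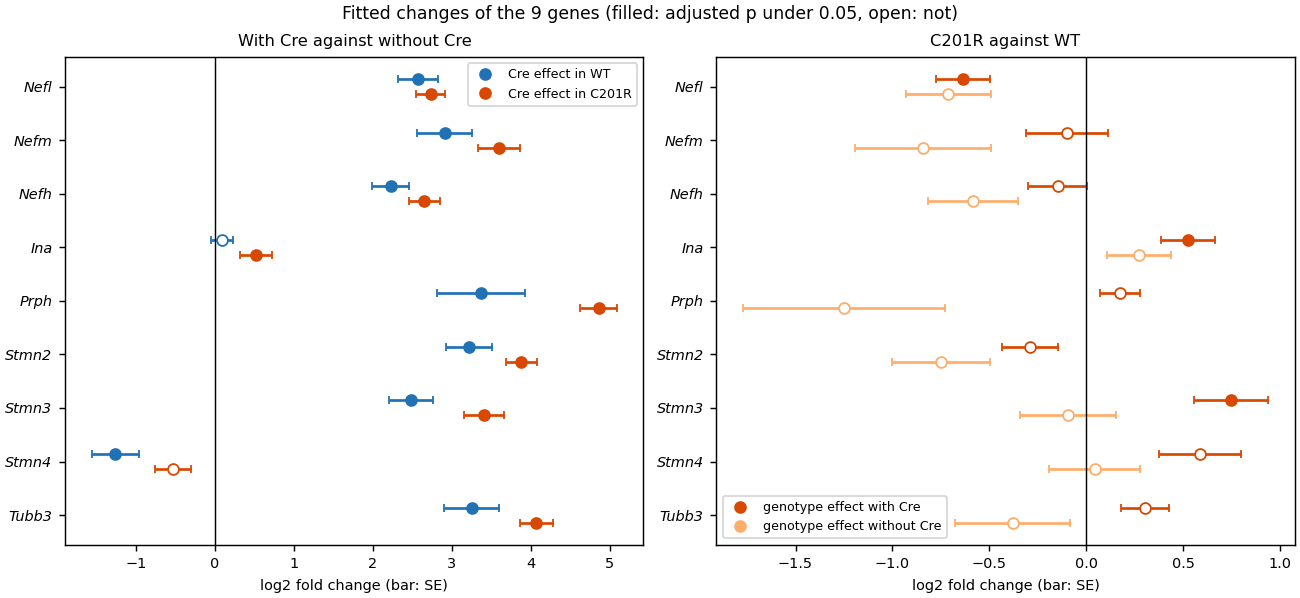
Fitted log2 fold change of each gene with its SE: with Cre against without Cre (left panel) and C201R against WT (right panel). Filled points passed an adjusted p of 0.05; with Cre, Nefl is lower in C201R and Ina and Stmn3 are higher, and no gene passed without Cre.

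Other genes of microtubules were enriched with Tubb3. Of 11 measured alpha and beta tubulin genes, 9 were higher and 1 lower with Cre in WT (median log2 change 2.19), and 9 were higher and 0 lower in C201R (median 2.71). Of 26 genes for microtubule-associated proteins, 19 were higher and 3 lower in each genotype (median 1.02 in WT and 0.918 in C201R). The 8 other intermediate filament genes, a list that holds Gfap of astrocytes (-3.52 in WT), had 2 higher and 3 lower in WT (median -1.75).

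Most markers of glia and of other spinal neurons in the pulldowns moved the other way from the 7 genes. Of 10 oligodendrocyte and 10 astrocyte markers, all were lower with Cre in WT (median log2 change -3.57 and -3.31), and 10 of the 11 measured markers of cholinergic and motor neurons rose (median 3.59). The summed level of the oligodendrocyte list was 4879 to 8763 CPM in WT without Cre and 506.2 to 1119 CPM with Cre. Of 9 tested markers of other spinal neurons, 7 were lower with Cre in WT and 1, Calb2, was higher (median -1.44). Their sum was 408.3 to 602 CPM without Cre and 168.1 to 295.8 CPM with Cre. In C201R, Gad1, Pax2, Pvalb and the astrocyte marker Aldoc were not called lower. Markers of dorsal root ganglion sensory neurons were mixed. In WT, Tac1 was lower (-2.30, edgeR adjusted p = 0.000427), and Scn10a, Scn11a, P2rx3 and Pirt were not called. In C201R, Tac1 was lower (-1.88, edgeR adjusted p = 0.00388), P2rx3 was higher (2.54, adjusted p = 0.0116, mean 1.29 CPM), and Avil and Pirt were not called. The part of all these other cell types in the low change of Ina and the fall of Stmn4 was not tested.

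In the study's main comparison, C201R against WT with Cre, Nefl was lower and Ina and Stmn3 were higher in C201R. That is 2 of the 9 higher and 1 lower, beside 2.29% of all 14634 genes higher and 1.82% lower. The members' median log2 change was 0.174, and that of all genes was -0.006. The ranges of the 2 genotypes overlapped for all 9 genes, and the share of all genes that overlap was not counted.

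Marker genes of neurons also differed between the genotypes with Cre. Of 11 measured markers of cholinergic and motor neurons, 3 were lower and 0 higher, beside the 1.82% of all genes that were lower. They were Chodl at -1.02 ± 0.14 (edgeR adjusted p = 0.000635), Calcb at -0.88 ± 0.17 (adjusted p = 0.0125) and Ahnak2 at -0.85 ± 0.13 (adjusted p = 0.00175). The list's median was -0.065, and its summed level was 1147 to 2214 CPM in WT and 910.7 to 1532 CPM in C201R. Of 9 tested markers of other spinal neurons, 1 was higher and 0 lower: Calb2, the gene of the calcium-binding protein calretinin, at 0.73 ± 0.18 (edgeR adjusted p = 0.0364). Alone in its list, Calb2 was also higher with Cre than without, by 1.97 ± 0.25 in WT and 2.42 ± 0.24 in C201R (edgeR adjusted p = 6.57e-06 and 2.81e-07). That list had a median of 0.373, and its summed level was 168.1 to 295.8 CPM in WT and 229.1 to 470.2 CPM in C201R. The part of these cells in the fall of Nefl and the rises of Ina and Stmn3 was not tested.

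Nefl was at 7172, 12610, 12650, 12720, 15030 and 15550 CPM in WT with Cre, and at 6490, 7251, 7371, 7899, 8133 and 9075 CPM in C201R with Cre. The lowest WT value, mouse 14701-9, lay inside the C201R range, and the other 5 WT libraries lay above all 6 C201R libraries. The log2 change was -0.63 ± 0.14 (edgeR adjusted p = 0.0205), a level of 0.644 times WT. The call was lost without any 1 of 5 mice (14004-2 and 14703-4 of C201R, 14002-6, 14004-3 and 14004-6 of WT; Nefl adjusted p 0.0518 to 0.118). Of 12 other settings the call held in 9. It was lost with the mouse number prefix as a block (-0.62, adjusted p = 0.15), with library totals alone (-0.93, adjusted p = 0.35) and with the share of Gm26924 as a covariate (-0.51, adjusted p = 0.26). In library series 2 alone the Nefl change was -0.78 (adjusted p = 0.00037), and without mice 14003-1 and 14701-9 it was -0.74 (adjusted p = 0.000198). These mice had the highest mitochondrial shares of their groups (15.76% and 17.11%). Both subsets leave out 14701-9, the only WT library inside the C201R range, so the genotypes separate fully in them. Their smaller p values are thus not separate support for the call.

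Nefm and Nefh, which assemble with Nefl, did not pass the test. Nefm was at 15860, 17800, 18330, 18770, 19040 and 26530 CPM in WT with Cre and at 10810, 11680, 16330, 19780, 29410 and 39810 CPM in C201R with Cre. The C201R libraries thus lay both below and above WT, with a log2 change of -0.10 ± 0.21 (edgeR adjusted p = 0.85). Nefh was at 2938 to 3750 CPM in WT and at 2168 to 4502 CPM in C201R, a change of -0.15 ± 0.15 (edgeR adjusted p = 0.66). In series 2 alone, with 4 WT and 3 C201R libraries, both were called lower: Nefm at -0.46 (adjusted p = 0.0389) and Nefh at -0.46 (adjusted p = 0.0199). Without the library series term the Nefm change was 0.16 (adjusted p = 0.80).

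Ina went the opposite way from Nefl. In C201R with Cre it was at 127.5, 136.5, 145.9, 155.5, 161.5 and 185.2 CPM, against the 73.2 to 136.6 CPM of WT with Cre given above. Only the lowest 2 C201R libraries lay within the WT range. The log2 change was 0.53 ± 0.14 (edgeR adjusted p = 0.0486), 1.44 times WT. This value is close to the threshold: the call was lost without any 1 of 9 mice (14003-4, 14004-5 and 14703-4 of C201R and all 6 WT mice; adjusted p 0.0654 to 0.147) and held under 6 of 12 alternatives. Prph, which is also a partner of Nefl, was at 254.2 to 319.5 CPM in WT and 293.2 to 377.4 CPM in C201R, a change of 0.17 ± 0.10 that was not called (edgeR adjusted p = 0.41).

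Stmn3 was at 279.3, 319.9, 359.2, 386.6, 409.4 and 719.6 CPM in WT with Cre, and at 372.7, 420.6, 702.1, 940.6, 1147 and 1266 CPM in C201R with Cre. The change was 0.75 ± 0.19 on the log2 scale (edgeR adjusted p = 0.0411), 1.68 times WT. It was lost without any 1 of 7 mice (14003-4 and 14703-4 of C201R, 14002-6, 14004-3, 14004-6, 14702-3 and 14703-5 of WT; adjusted p 0.056 to 0.171), and in series 2 alone Stmn3 had 0.57 (adjusted p = 0.13). Stmn4 was at 27.8 to 98.2 CPM in WT and 35.0 to 116.8 CPM in C201R, a change of 0.59 ± 0.21 (edgeR adjusted p = 0.142). It was called higher without WT mouse 14701-9 (0.82, adjusted p = 0.0363). Stmn2 was at 697.4 to 1379 CPM in WT and 562.1 to 1137 CPM in C201R, with a change of -0.29 ± 0.15 (edgeR adjusted p = 0.30). Tubb3 was at 313.7 to 437.2 CPM in WT and 321.4 to 637.4 CPM in C201R, with a change of 0.30 ± 0.12 (edgeR adjusted p = 0.198).

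The Gm26924 share of a library moved with several of these levels. In the 4 libraries with Cre above 30%, Nefm was at 19780 to 39810 CPM, and in the other 8 (7.45% to 20.9%) at 10810 to 19040 CPM. Stmn3 (719.6 to 1266 against 279.3 to 702.1 CPM) and Stmn4 (75.6 to 116.8 against 27.8 to 64.9 CPM) were also fully split by it. Nefl (6490 to 8133 against 7371 to 15550 CPM), Stmn2 (562.1 to 902.9 against 900.0 to 1379 CPM) and Ina (73.2 to 161.5 against 96.5 to 185.2 CPM) overlapped. The division at 30% was chosen after the values were seen. Among the 8 libraries below it, the 3 of C201R had Nefl at 7371, 7899 and 9075 CPM and the 5 of WT at 12610 to 15550 CPM. Above it, WT mouse 14701-9 had 7172 CPM, among the 6490, 7251 and 8133 CPM of C201R. This mouse was the only WT library inside the C201R range of Nefl. The division sets it apart, so the separation of the other 8 follows from where the division was put. With the share as a covariate none of the 9 genes was called: Nefl had -0.51 (adjusted p = 0.26), Ina 0.48 (adjusted p = 0.30), Stmn3 0.28 (adjusted p = 0.44) and Nefm -0.60 (adjusted p = 0.063). Since 3 of these 4 libraries were C201R, and all 4 were of series 1, genotype, series and share overlap in part.

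**Figure D3:**
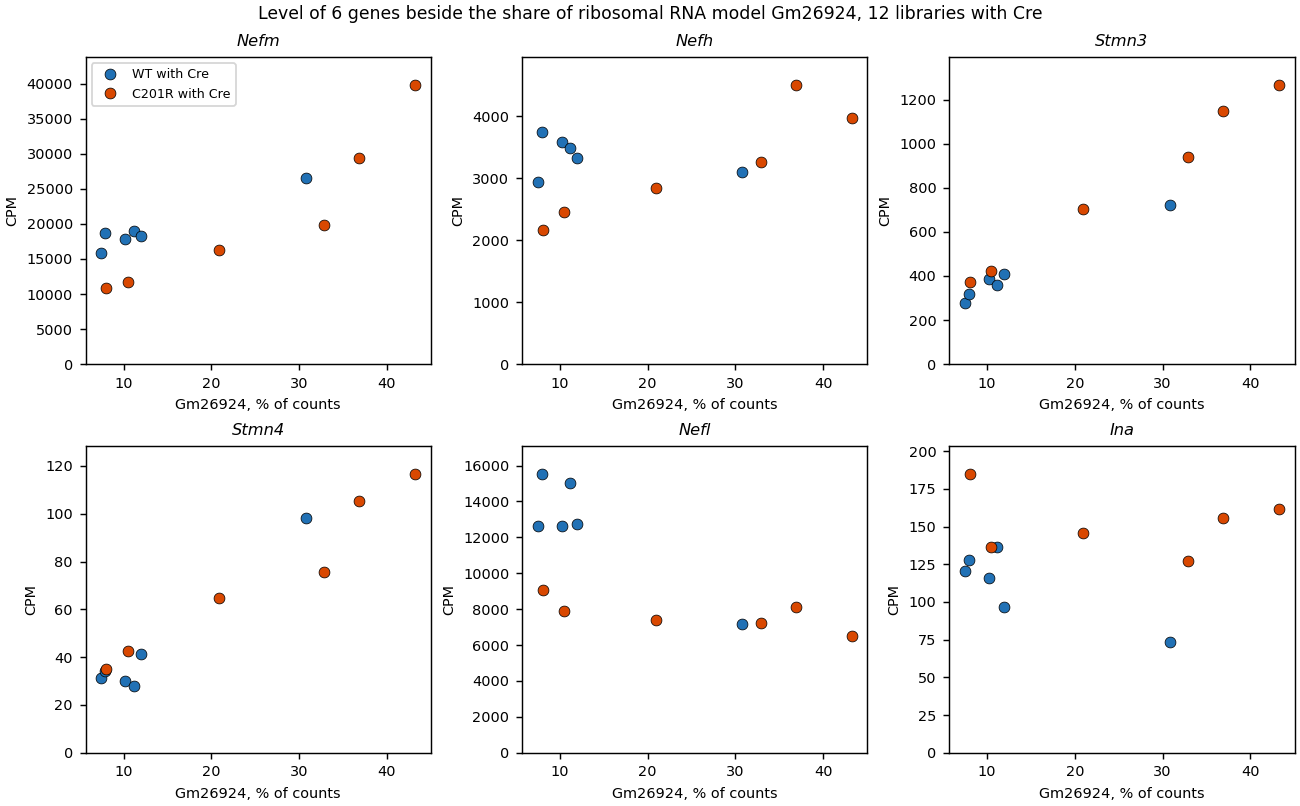
Level (CPM) of 6 genes against the percentage of counts taken by Gm26924 in the 12 libraries with Cre; each point is a mouse, coloured by genotype. Nefm, Stmn3 and Stmn4 are higher in the 4 libraries above 30%, and below it Nefl of the 3 C201R libraries lies under that of the 5 WT libraries. Above 30%, Nefl of the WT library lies among those of C201R. The division at 30% was chosen after the values were seen.

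Ratios between the genes inside a library do not depend on library scaling. Over 7 ratios of TPM and 4 comparisons, 13 of 28 tests passed (exact two-sided permutation test over the 924 splits of 6 against 6, Benjamini-Hochberg over the 28; the smallest p is 0.0022). The 5 ratios to Nefl share that gene and are not independent. Ina/Nefl separated the genotypes with Cre: it was 0.00794 to 0.0107 in WT and 0.0181 to 0.026 in C201R, with no overlap. The mean log2 difference was 1.14 ± 0.10 (SE, n = 6 and 6; exact permutation p = 0.00216, adjusted p = 0.00758), with C201R higher. It lay between 1.07 and 1.18 over 17 alternatives and passed in 16. In series 2 alone its adjusted p was 0.0615, where 3 libraries stood against 4. All 3 of C201R lay above all 4 of WT there, and no split of so few libraries could give a smaller p. WT mouse 14701-9, which lay apart from its group in Nefl itself, had the highest Ina/Nefl ratio of WT with Cre, 0.0107, below all of C201R.

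Prph/Nefl and Tubb3/Nefl were also higher in C201R with Cre. Their shared denominator, Nefl, was called lower in these same libraries, and Prph and Tubb3 themselves were not called. These passes are therefore not separate from the fall of Nefl. Prph/Nefl was 0.0338 to 0.0726 in WT and 0.0647 to 0.105 in C201R, a log2 difference of 0.86 ± 0.18 (exact permutation adjusted p = 0.011). Tubb3/Nefl was 0.0447 to 0.115 in WT and 0.0767 to 0.184 in C201R, a difference of 1.03 ± 0.29 (exact permutation adjusted p = 0.0186). In both, 14701-9 was the WT library inside the C201R range. Nefm/Nefl (0.67 ± 0.43, exact permutation adjusted p = 0.21), Nefh/Nefl (0.57 ± 0.25, 0.0833), Stmn2/Stmn3 (-1.25 ± 0.53, 0.0727) and Stmn4/Stmn3 (-0.12 ± 0.14, 0.50) did not pass. Nefh/Nefl and Stmn2/Stmn3 each passed in 4 of 17 alternatives, with adjusted p down to 0.0213 and 0.0171 when labels were exchanged within library series. The other 3 left out C201R mouse 14004-5, WT mouse 14701-9, or 14701-9 together with 14003-1.

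**Figure D4:**
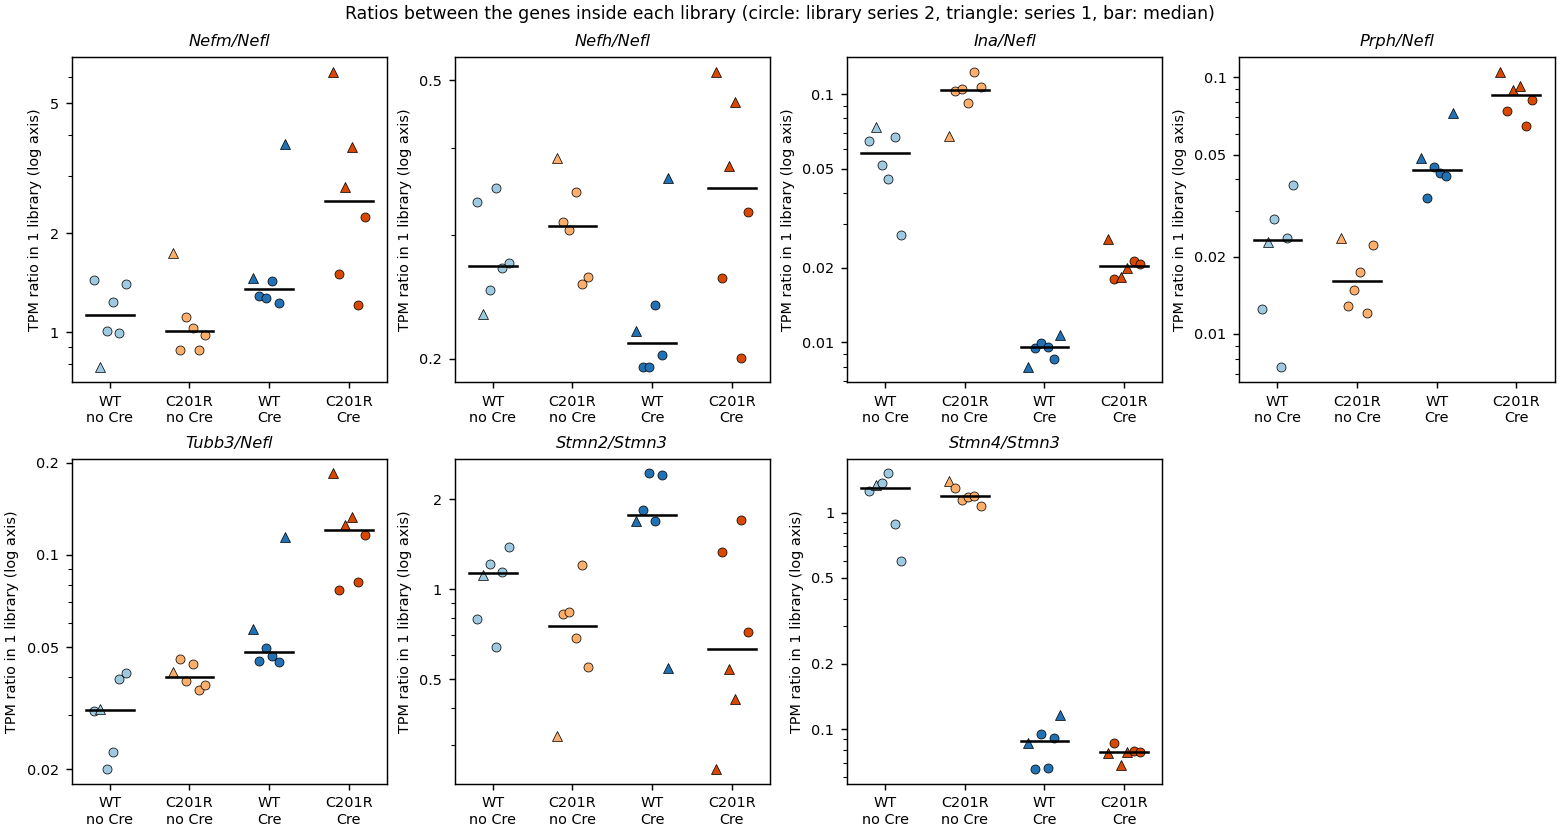
TPM ratio between 2 genes inside each library (log axis), by group; points are mice, triangles library series 1, circles series 2, bars medians. With Cre, Ina/Nefl in the 6 C201R libraries lies above all 6 WT libraries, and Stmn4/Stmn3 separates every library with Cre from every library without.

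Across Cre, Stmn4/Stmn3 changed the most: it was 0.596 to 1.51 in WT without Cre and 0.0654 to 0.116 with Cre (-3.71 ± 0.25 on the log2 scale, exact permutation adjusted p = 0.00758). In C201R it was 1.073 to 1.396 without Cre and 0.0682 to 0.086 with Cre (-3.96 ± 0.07, exact permutation adjusted p = 0.00758). Ina/Nefl fell by 2.49 ± 0.23 in WT and by 2.25 ± 0.14 in C201R with Cre (exact permutation adjusted p = 0.00758 in each). Prph/Nefl rose by 1.24 ± 0.38 in WT (adjusted p = 0.011) and by 2.33 ± 0.19 in C201R (adjusted p = 0.00758), both by exact permutation. Nefm/Nefl passed in C201R (1.23 ± 0.38, exact permutation adjusted p = 0.0186) and not in WT (0.50 ± 0.29, adjusted p = 0.121), and the difference between the genotypes was not tested. In C201R with Cre the ratio was 6.224, 3.668 and 2.767 in mice 14003-1, 14003-4 and 14701-5, the libraries of series 1 with Gm26924 above 30%, and 1.208 to 2.247 in the other 3. In series 2 alone the C201R change was 0.71 (exact permutation adjusted p = 0.05, not under the threshold), where 3 libraries with Cre stood against 5 without. All 3 with Cre lay above all 5 without there (at most 1.116), and no split of so few libraries could give a smaller p. The part of the Gm26924 share was not tested.

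As shares of the TPM of the 5 intermediate filament genes, Nefl made up a median of 38.18% in WT with Cre (19.24% to 40.37%) and 25.37% in C201R with Cre (12.71% to 40.08%). Nefm made up 51.78% (49.44% to 72.19%) and 63.12% (48.43% to 79.1%). In C201R with Cre, mice 14003-1, 14003-4 and 14701-5 held the 3 highest Nefm shares and were those with Gm26924 above 30%, as was WT mouse 14701-9 with its 72.19%. Ina made up 0.35% and 0.5% in WT and C201R with Cre, and 2.24% and 4.3% without Cre. Prph made up 1.6% and 2.16% with Cre and 1.04% and 0.64% without.

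**Figure D5:**
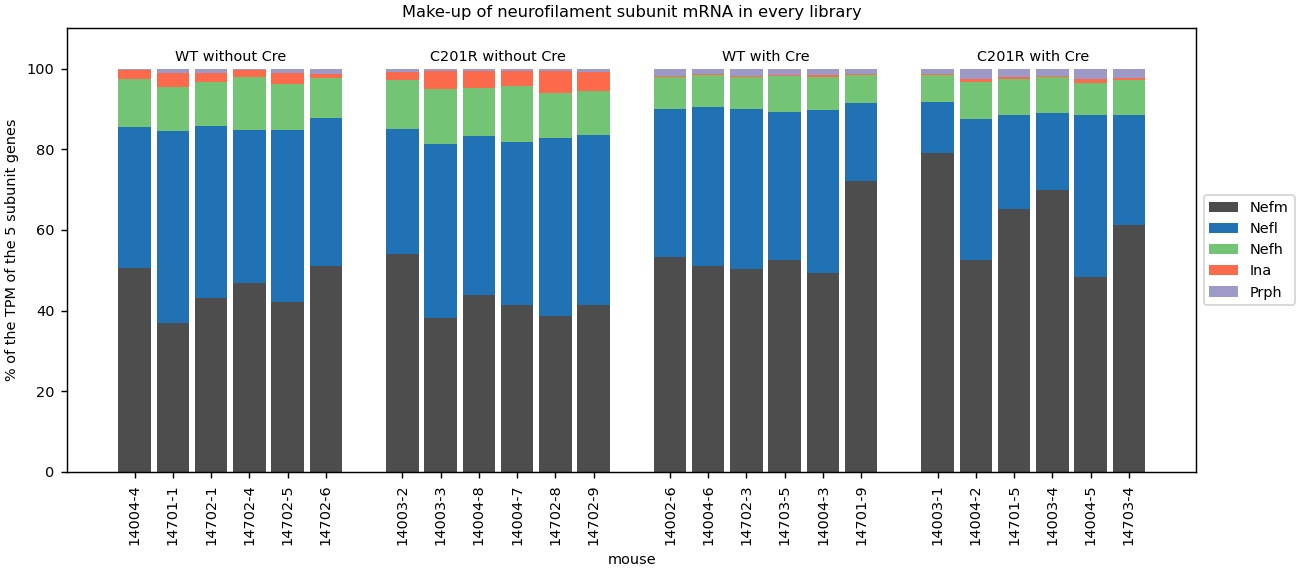
Share of each of the 5 intermediate filament genes in their summed TPM, as stacked bars for each of the 24 mice. Nefm takes 49.44% to 72.19% in WT with Cre and 48.43% to 79.1% in C201R with Cre, and Ina and Prph are thin bands in all groups.

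Without Cre no gene passed the test between C201R and WT: 0 of the 9, beside 0% of all 14400 genes higher and 0% lower by edgeR. At an unadjusted p under 0.05 there were 455 genes, 5 of them members, and DESeq2 called 2 genes and limma-voom 0 over all genes. Nefl was at 1221, 1440, 1617, 1944, 2107 and 4140 CPM in WT and at 1002, 1082, 1089, 1277, 1421 and 1544 CPM in C201R. Its log2 value was -0.71 ± 0.22 (edgeR adjusted p = 1). Nefm had -0.84 ± 0.35, Nefh -0.58 ± 0.23, Stmn2 -0.75 ± 0.25 and Prph -1.25 ± 0.52, and these with Nefl were the 5 at an unadjusted p under 0.05. Ina had 0.27 ± 0.17, Stmn3 -0.09 ± 0.25, Stmn4 0.04 ± 0.24 and Tubb3 -0.38 ± 0.30. The members' median was -0.583 and that of all genes -0.036. Without WT mouse 14702-6, the highest for Nefl, the members' median was -0.349 and 2 members were at an unadjusted p under 0.05. Without C201R mouse 14004-7 or 14702-8 there were also 2, and without 14003-3 or 14004-8 there were 3. The cholinergic markers had a median of -1.02 over 7 tested, and their summed level was 67.7 to 127.3 CPM in C201R and 90.3 to 361.8 CPM in WT without Cre. Their part in the members' values was not tested. Of the ratios, Ina/Nefl alone passed without Cre: it was 0.0272 to 0.0741 in WT and 0.0676 to 0.123 in C201R, a log2 difference of 0.91 ± 0.25 (exact permutation adjusted p = 0.011).

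The interaction over all 24 libraries, which tests whether the genotype change differs with and without Cre, called none of the 9. It called 0.0993% of all 16109 genes higher and 0.031% lower. At an unadjusted p under 0.05 there were 1464 genes, 4 of them members, and DESeq2 and limma-voom called 0 of the 9 as well. The largest values were Prph at 1.49 ± 0.55 (edgeR adjusted p = 0.43), Stmn3 at 0.99 ± 0.38 (adjusted p = 0.43), Nefm at 0.95 ± 0.46 (adjusted p = 0.55) and Tubb3 at 0.79 ± 0.38 (adjusted p = 0.54). Nefl had the smallest, 0.10 ± 0.29 (adjusted p = 0.94). A difference between its changes with and without Cre was thus not shown, nor was one between the changes of Ina (0.24 ± 0.23, adjusted p = 0.80).

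Other genes of the same pathways were read in the same genotype test with Cre, where 2.29% of all genes were higher and 1.82% lower. Of 16 regulators and crosslinkers of neurofilaments, 1 was lower and 0 higher: Dst, which encodes the linker protein dystonin, at -0.52 ± 0.14 (edgeR adjusted p = 0.0447); the list had a median log2 change of -0.164. None of 8 other intermediate filament genes was called; Synm (synemin) had -0.14 ± 0.16 and the astrocyte filament gene Gfap 0.24 ± 0.23, and the list median was 0.191. Of 9 other stathmin family genes and regulators 1 was lower, Mapk8ip1, a scaffold of the JNK pathway, at -0.59 ± 0.16 (edgeR adjusted p = 0.0464), with a list median of -0.144. Of 11 measured alpha and beta tubulins 1 was higher, Tubb2b, at 0.89 ± 0.22 (edgeR adjusted p = 0.0364), and the list median was 0.252. Over all genes the median was -0.006.

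Of 26 microtubule-associated protein genes, 1 was higher and 2 lower in C201R with Cre. Dclk1, a microtubule-binding kinase gene of neurons, had the largest change at -1.06 ± 0.14 (edgeR adjusted p = 0.000596). Map1b, which binds axonal microtubules, was lower, at -0.52 ± 0.11 (edgeR adjusted p = 0.0183), and Map4 was higher by 0.44 ± 0.12 (edgeR adjusted p = 0.0452), with a list median of -0.086. Of 20 genes for folding, modifying and severing tubulin, 1 was higher and 2 lower: the folding cofactor genes Tbca (0.52 ± 0.12) and Tbcd (-0.55 ± 0.14) and the tyrosine ligase gene Ttl (-0.48 ± 0.11), with edgeR adjusted p of 0.0285, 0.0373 and 0.0302 and a list median of -0.117. Of 10 general neuron genes, the growth cone gene Gap43 was higher (0.69 ± 0.17, edgeR adjusted p = 0.0354) and the neuronal splicing factor gene Rbfox3 lower (-1.12 ± 0.24, edgeR adjusted p = 0.0195), with a list median of 0.053. The interaction called 1 gene of these lists, Dclk1, at -1.14 (edgeR adjusted p = 0.0382).

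The 9 genes did not vary as one block between libraries. After removal of group means and library series, Pearson's r of log2(CPM + 1) over 24 libraries was 0.936 for Nefm with Nefh, 0.906 for Nefm with Stmn3 and 0.804 for Stmn3 with Stmn4. Nefl went most closely with Prph (0.751) and Stmn2 (0.748), and with Nefm it had 0.608. Ina had its highest value with Nefl (0.443), and Stmn2 with Stmn4 had -0.146. These correlations describe libraries that share depth and Gm26924 content and carry no test. Among 6473 ranked genes, the pattern of Nefl was most like that of Add2 (0.843), Map1b (0.839), Rcan1 (0.836), Kars (0.835) and Susd2 (0.819). That of Nefh was most like Psmc3 (0.958), Nefm (0.936), Dnajc7 (0.906), Palm3 (0.886) and Cuta (0.883). Prph was closest to Sncg (0.928), Spp1 and Uts2 (0.823 each), Ergic3 (0.82) and Hspb1 (0.812). Stmn2 was closest to Anxa6 (0.896), Dctn5 and Rcan1 (0.876 each), Vat1l (0.86) and Tcp1 (0.859), and Tubb3 to Uchl1 (0.858), Fam160b2 (0.854), Cdc37 (0.846), Fam173a (0.844) and Eef1d (0.842).

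In the RefSeq annotation (GRCm38.p6) Nefl and Nefm are neighbours. Nefm overlaps A230070E04Rik, Nefh overlaps Gm35321 and Ap1b1, and Ina overlaps Nt5c2. These are overlaps of whole gene spans. The sources used here do not say whether counting used the strand, so whether reads in the overlaps were told apart is not known. Nt5c2 had a mean of 20.9 CPM in the libraries with Cre and a genotype change of -0.18 ± 0.21 (edgeR adjusted p = 0.71), against the rise of Ina. Ap1b1 had a mean of 85.8 CPM and a change of 0.08 ± 0.14 (edgeR adjusted p = 0.80).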

How the data were processed

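Ribosome-associated RNA of 24 spinal cords was sequenced. The authors deposited expected counts and TPM per gene, for which the submitters' processing notes name RSEM 1.2.12 and Bowtie2 2.2.0; the build behind the files was not given there. RSEM divides reads between similar genes, so values of near-identical tubulin copies are uncertain. Expected counts were rounded. Genes were kept by filterByExpr, library sizes scaled by TMM, and tests run in edgeR 4.0.16 under R 4.3.3 (robust quasi-likelihood F test, library series as a term, Benjamini-Hochberg over all genes). The SE follows from the log2 change and F. Pairs of groups were fitted on their own 12 libraries and the interaction on all 24. Deposited TPM served for levels between genes and for ratios. The scripts were tested on simulated counts for the genotype comparison with Cre. There edgeR recovered 31% of genes changed 2-fold and 79% of genes changed 4-fold, so a change that was not called may have been missed. The members and lists were chosen with earlier results of these data known. Named pathway genes are the called genes of each list with Cre (at most 4 with the smallest p), or else the 2 most abundant. Genes like a member are the 5 with the highest correlation, among those with a mean of at least 10 CPM with Cre. Alternatives were RLE scaling, library totals, other filters, DESeq2 1.42.0, limma-voom (limma 3.58.1), other covariates and subsets of libraries.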

Additional observations from a re-analysis of the deposited data

Results flagged for a closer look

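Of 64 sets of 6 values (9 genes in 4 groups and 7 ratios in 4 groups), 14 held a library farther from the others than Dixon's 95% limit. Chance flags about 1 set in 20. These sets share libraries, and 13 of the 14 came from 2 mice. WT mouse 14702-6 without Cre was the highest of its group for Nefl (4140 CPM), Nefm (5716 CPM), Prph (78.86 CPM), Stmn2 (265.6 CPM) and Tubb3 (90.79 CPM), the gene with the widest gap. It also had the highest summed level of cholinergic markers without Cre, 361.8 CPM. Without it the genotype value of Tubb3 without Cre was 0.08 in place of -0.38. WT mouse 14701-9 with Cre was the lowest of its group for Nefl (7172 CPM) and Stmn2 (697.4 CPM) and the highest for Nefm (26530 CPM), Stmn3 (719.6 CPM) and Stmn4 (98.17 CPM). Its ratios were the highest of the group for Nefm/Nefl (3.753), Nefh/Nefl (0.3622) and Tubb3/Nefl (0.1146). It had the highest Gm26924 share of WT with Cre, 30.8%, and the highest mitochondrial share, 17.11%. The last was C201R mouse 14003-2 without Cre, with a Nefm/Nefl ratio of 1.74. The part of these shares and markers in the outlying values was not tested.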

How the results depend on the processing

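The 7 rises with Cre held in both genotypes under each alternative that gave an adjusted p (DESeq2 gave none for Prph in WT). The calls between genotypes with Cre did not: 3 members were called, against 0 with library totals alone, 0 in the fit with a replicate block of mouse number prefixes, 0 once the Gm26924 share entered as a covariate, 1 without the library series term (Nefl) and 5 without mice 14003-1 and 14701-9 (3 higher, 2 lower). With 1 library left out the count was 0 to 3, and it was 0 without each of 14703-4, 14002-6, 14004-6 and 14004-3 and 1 without each of 14003-4, 14702-3 and 14703-5. Library totals alone moved the median of all genes from -0.006 to -0.265 with Cre. Over all genes, 335 higher and 266 lower calls stood against 60 and 15 with the block, 24 and 8 with library totals, and 954 and 996 without the 2 mice. In C201R, RLE scaling turned the split across Cre from 4369 higher and 3779 lower to 3784 and 4381. With Cre, prefixes 14003, 14002 and 14702 each hold a single genotype and add nothing to the blocked genotype value. Directions turned as follows; none of these values was called. With Cre, Nefm was 0.1596 without the series term (left-out libraries -0.2807 to 0.0204) and Prph -0.1105 with library totals. Without Cre, Stmn4 was -0.2277 with the replicate block, -0.1022 with the Gm26924 covariate and -0.1576 in series 2 (left-out libraries -0.157 to 0.2059), Stmn3 ranged from -0.3041 to 0.0979 and Tubb3 from -0.496 to 0.0799 with 1 library left out. Across Cre in WT, Ina was -0.1613 with the strict filter of 50 counts. In the interaction, Nefl was -0.2161 with library totals and -0.0968 with limma-voom (left-out libraries -0.214 to 0.1951), and Ina -0.075 and, in series 2, -0.0928. Of the ratios, Stmn4/Stmn3 was -0.1301 without Cre with medians (left-out libraries -0.0511 to 0.2184) and 0.0587 with Cre in series 2. In C201R across Cre, Nefh/Nefl was -0.1968 in series 2, and Stmn2/Stmn3 was 0.5692 in series 2 and 0.2688 without the 2 mice (left-out libraries -0.2856 to 0.2688). Nefm/Nefl without Cre ranged from -0.1994 to 0.0139 with 1 library left out. The causes were not tested.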
